A study of Mus musculus with 8 samples.

Results

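Cytokine receptors signal through Janus kinases, which phosphorylate transcription factors of the STAT family, and STATs induce SOCS proteins, which in turn shut the receptors off. From these families 10 genes, listed by symbol, were read in sorted microglia of Smad2/3 mutant and control mice: the STAT genes Stat3, Stat4, Stat5a, Stat5b and Stat6, and the feedback inhibitors Socs1, Socs2, Socs3, Socs6 and Cish. All 10 have a row in the deposited count matrix of 55573 genes and all 10 passed the filter on low counts, so none drops out below. Stat3 is activated through the gp130 receptors of the interleukin 6 family and through the interleukin 10 receptor, Stat4 by interleukin 12, Stat5a and Stat5b by cytokines that use the common beta and common gamma chains, and Stat6 by interleukin 4 and interleukin 13. Socs3 binds gp130, Socs1 binds Janus kinases directly, and Cish and Socs2 are known as feedback inhibitors of STAT5 signals. In microglia the pathway carries responses to interleukin 6, interleukin 10, interferons and granulocyte-macrophage colony-stimulating factor.

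The mutants were 4 mice of genotype Smad2/3 fl/fl;Cx3cr1 Cre, and the controls were 4 mice, and brain microglia of both were sorted at postnatal day 60 (P60), with 1 library per mouse. Per the Methods, cells were gated on tdTomato and read for CD45 and CD11b. Smad2 and Smad3 carry TGFβ signals to the nucleus, and Cre driven by Cx3cr1 acts in microglia and in other macrophages that express this gene. The labels call the controls wild-type, whereas the Methods describe controls that generally carry Cre with a floxed allele, and mice were on a C57BL6/J background. Libraries held 35639502 to 41946479 counts in mutants and 37649124 to 40932680 in controls. Levels below are CPM, counts scaled to a common library size, after TMM scaling, a correction for library composition, and a call is an edgeR quasi-likelihood test with a Benjamini-Hochberg adjusted p under 0.05 over the 20153 genes tested.

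Some facts about these libraries touch every result. Xist was at 99.5 to 183 CPM in the controls and at most 0.562 in the mutants, with Ddx3y at 9.74 to 59.8 CPM in the mutants, so sex and genotype cannot be told apart. The 8 microglial markers summed to 30988 to 47336 CPM in controls and 5266 to 7619 in mutants, and 8 markers of border-associated macrophages summed to 33.4 to 47.6 against 1624 to 2499, so the sorted cells of the mutants differed in their marker profile. Smad3 was lower in the mutants (log2 fold change -1.33 ± 0.36 SE, edgeR adjusted p = 0.0429), at 9.61 to 35.1 CPM against 39.5 to 56.9, and Smad2 was not called (-0.34 ± 0.22, edgeR adjusted p = 0.34). The Smad3 call held without mutant 3, the mutant with 35.1 CPM, and was lost in the other 7 fits that left out a library, with an edgeR adjusted p up to 0.110. The labelled cell type can be checked only in part, since in bulk RNA fewer cells of a type and less RNA per cell cannot be told apart.

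Of the 10 genes, 3 were lower in the mutants (Socs3, Stat3 and Stat6), 2 were higher (Socs1 and Stat4) and 5 were not called (Stat5a, Stat5b, Socs2, Socs6 and Cish). Over all genes tested, 12.3% were called, 7.97% lower and 4.36% higher. The same 5 genes were those whose groups did not overlap in CPM, against 13% of all tested genes with every mutant lower and 9.04% with every mutant higher. The median log2 fold change over the 10 genes was -0.74, and 0.01 over all genes tested. DESeq2 called 8 of the 10, all but Socs6 and Cish, against 20.7% of the genes for which it gave an adjusted p.

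**Figure D1:**
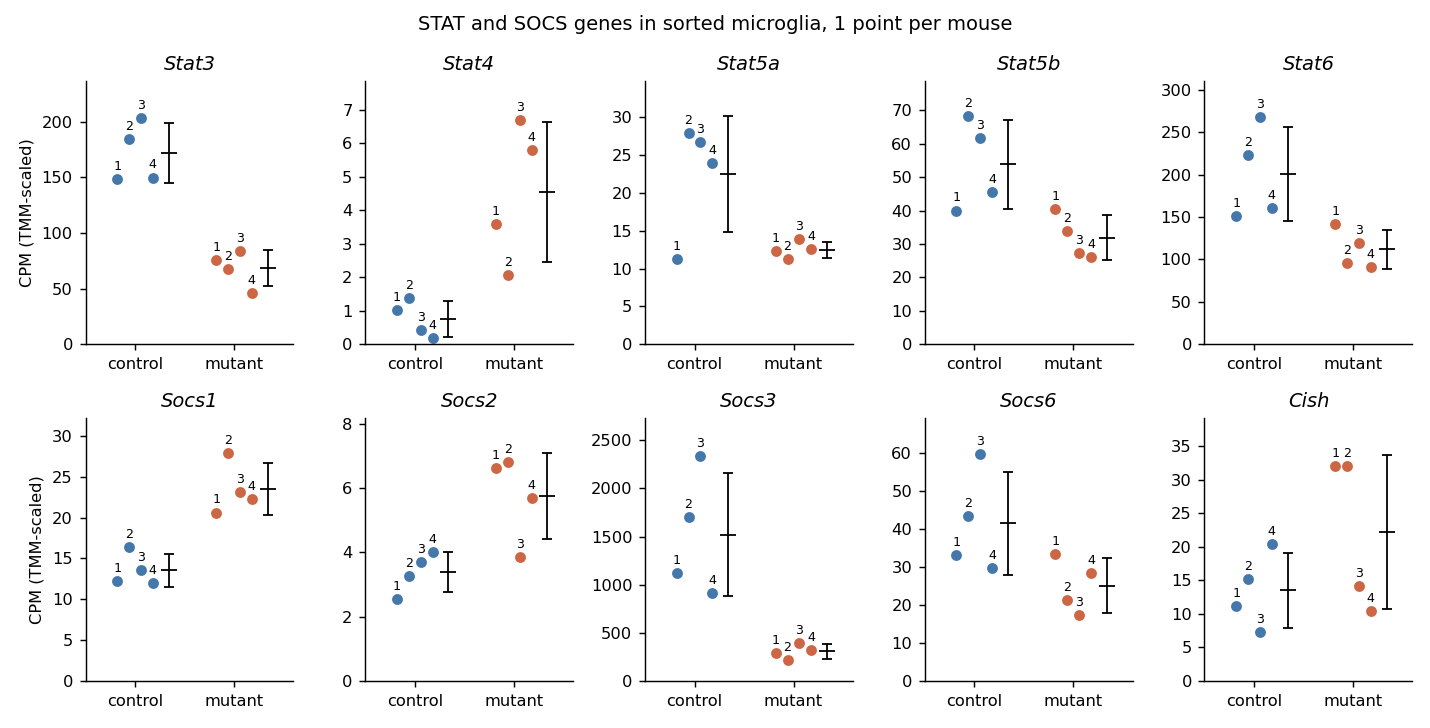
Level of each of the 10 genes in CPM (y axis, starting at 0) in the 4 control (blue) and 4 mutant (orange) libraries, numbered by replicate, with the mean and SD of each group in black. Every mutant lies below every control for Stat3, Stat6 and Socs3 and above every control for Stat4 and Socs1, and the groups overlap for the other 5 genes.

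Socs3, the inhibitor that binds gp130, was the most abundant of the 10 genes and had the largest fall among them. It was at 1119, 1706, 2335 and 912 CPM in controls 1 to 4 and at 292, 217, 396 and 318 CPM in mutants 1 to 4. The lowest control was thus above the highest mutant, and the controls differed among themselves more than the mutants did. The log2 fold change was -2.31 ± 0.33 (SE, n = 4 and 4; 95% interval -3.05 to -1.58), a level 4.96-fold lower, with an edgeR adjusted p of 0.00213. The call held in each of the 8 fits that left out a library, with an edgeR adjusted p up to 0.009. The gene lies at chr11:117966079-117970047 on the minus strand of GRCm38, in 4 merged exons, and shares no exon with another gene and no 50-base word with another gene's transcripts.

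Socs3 is also known to be induced quickly when cells are dissociated or stressed, and its level moved with genes of that kind from mouse to mouse. The list used held 18 immediate early and dissociation-induced genes, called the immediate early list here. In the controls it summed to 57011, 64850.2, 96479 and 42895 CPM in replicates 1 to 4, in the same order as Socs3. Among the mutants the sums were 44702, 35349, 69523 and 44240.1 CPM, with the highest and the lowest in the mice with the highest and the lowest Socs3. The groups overlapped in this sum. As a percentage of it, Socs3 was at 1.96, 2.63, 2.42 and 2.12 in the controls and at 0.653, 0.615, 0.569 and 0.719 in the mutants, with no overlap. The part of these genes in the Socs3 result was not tested. Of the 18 genes, Egr1 was called lower (-1.80 ± 0.37, edgeR adjusted p = 0.0134), Ccl3 and Ier3 were called higher (1.43 ± 0.22 and 1.68 ± 0.32, edgeR adjusted p = 0.00306 and 0.00957), and 15 were not called. Among those 15, Fos had a log2 fold change of -0.47 ± 0.28, Jun one of -0.94 ± 0.28 and Dusp1 one of 0.06 ± 0.33. Of the 18, 11 had a negative log2 fold change and 7 a positive one. Every mutant lay below every control in 2 of them, Egr1 and Jun, and above in 2, Ccl3 and Ier3, against 13% and 9.04% of all genes. DESeq2 called 4 of the 18 lower and 2 higher, against 20.7% of all genes called by it.

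**Figure D2:**
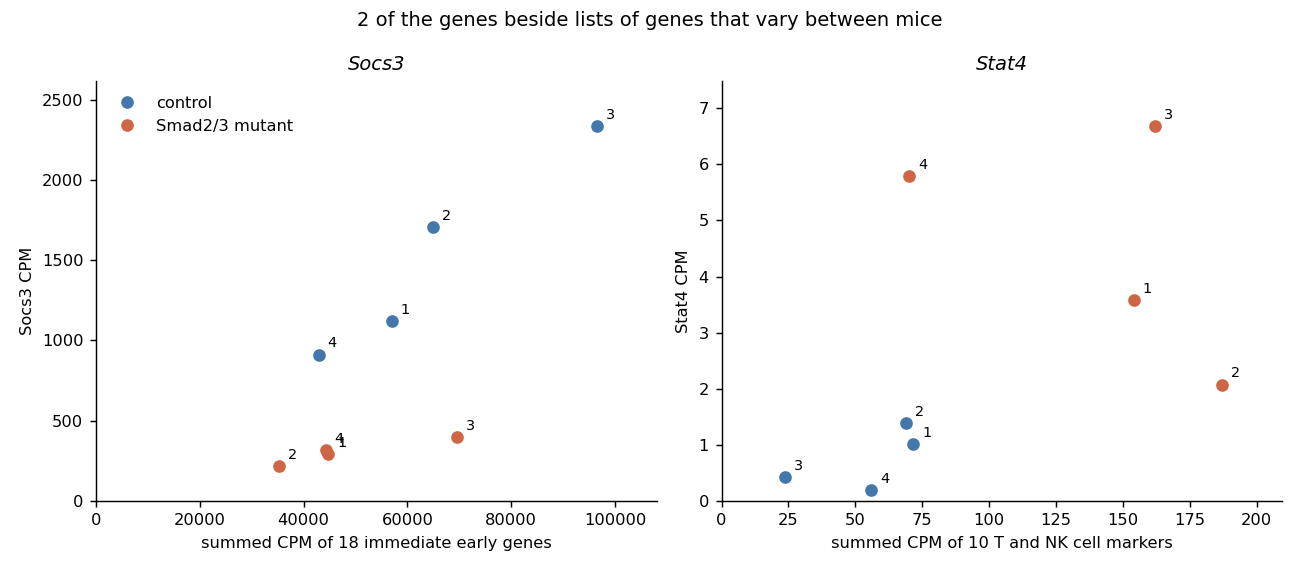
Left, Socs3 in CPM against the summed CPM of 18 immediate early and dissociation-induced genes. Right, Stat4 in CPM against the summed CPM of 10 markers of T and NK cells. Each point is a mouse, numbered by replicate, in controls (blue) and mutants (orange). The immediate early sums of the groups overlap and their Socs3 levels do not, and mutant 4 holds 5.80 CPM of Stat4 at a T and NK sum of 70.0 CPM, within the control range of 23.6 to 71.7 CPM.

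Stat3, the transcription factor that induces Socs3, was lower as well. It was at 149, 184, 203 and 149.7 CPM in the controls and at 75.3, 67.8, 84.1 and 46.1 CPM in the mutants. No mutant came near the lowest control. Its log2 fold change was -1.33 ± 0.21 (95% interval -1.80 to -0.85), a level 2.51-fold lower, with an edgeR adjusted p of 0.0039. The call held in each fit that left out a library, with an edgeR adjusted p up to 0.0156.

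Stat6 was at 151, 223, 268 and 161 CPM in the controls and at 141, 96.0, 119 and 91.3 CPM in the mutants. The groups were separate, but mutant 1 lay just under control 1. The log2 fold change was -0.84 ± 0.23 (95% interval -1.36 to -0.32), a level 1.79-fold lower, with an edgeR adjusted p of 0.0447. The call was lost in 5 of the 8 fits that left out a library (without control 2 or 3 or mutant 2, 3 or 4), with an edgeR adjusted p up to 0.118. It was also lost when libraries were scaled by their totals alone (-0.71, edgeR adjusted p = 0.0636).

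Stat5a and Stat5b encode near-identical factors and lie beside Stat3 in a cluster on chromosome 11. Stat5a was at 11.2, 28.0, 26.7 and 23.9 CPM in the controls and at 12.3, 11.3, 13.8 and 12.5 CPM in the mutants. Control 1 lay just below all 4 mutants, and the other 3 controls lay above all of them. The log2 fold change was -0.85 ± 0.28 (edgeR adjusted p = 0.0844), and -1.07 without control 1 (edgeR adjusted p = 0.00913). Stat5b was at 40.0, 68.2, 61.8 and 45.5 CPM in the controls and at 40.5, 33.8, 27.2 and 26.2 CPM in the mutants. Mutant 1 exceeded control 1 by under 1 CPM, and these were the only libraries that overlapped. The log2 fold change was -0.75 ± 0.23 (edgeR adjusted p = 0.06), with an edgeR adjusted p of 0.0454 without control 1 and 0.0441 without mutant 1. Control 1 and mutant 1 were the libraries of each group with the highest summed markers of oligodendrocytes, astrocytes and neurons. The oligodendrocyte sums were 4329.9 CPM against 598 to 1506 in the other controls and 3605 CPM against 1082 to 1961 in the other mutants. For astrocytes they were 456 CPM against 83.4 to 208 and 429 CPM against 151 to 230. For neurons they were 234 CPM against 29.5 to 80.9 and 214 CPM against 72.9 to 107. The part of this in the STAT5 values was not tested. With both libraries left out, Stat3, Stat5a, Stat5b, Stat6 and Socs3 were called lower and none of the 10 higher.

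On the GRCm38 build the cluster runs from Stat5b (chr11:100780731-100850724, minus strand) through Stat5a (chr11:100859351-100885169, plus strand) to Stat3 (chr11:100885098-100939540, minus strand). Stat5b and Stat5a are 8626 bases apart, and the last exons of Stat5a and Stat3 overlap by 72 bases on opposite strands, in libraries that do not mark strand. Of the 50-base words of their transcripts, 8.52% in Stat5a and 10.98% in Stat5b also occur in another gene's transcripts, nearly all in the partner's, so reads there cannot be assigned to one of them with certainty. Stat3 shares 0.55% of its words.

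Stat4, the factor activated by interleukin 12 and best known from T and NK cells, was the rarest of the 10 genes in controls. It was at 1.01, 1.38, 0.420 and 0.188 CPM in the controls, or 39, 53, 15 and 7 counts, and at 3.58, 2.07, 6.69 and 5.80 CPM in the mutants, or 138, 96, 240 and 210 counts. Every mutant lay above every control, but mutant 2 exceeded control 2 by less than the mutants differed among themselves. The log2 fold change was 2.59 ± 0.68 (95% interval 1.06 to 4.12), a level 6.02-fold higher, with an edgeR adjusted p of 0.0377. The call was lost in 5 of the 8 fits that left out a library (without control 1 or 3 or mutant 1, 3 or 4), with an edgeR adjusted p up to 0.104.

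The 10 markers of T and NK cells summed to 23.6 to 71.7 CPM in controls and 70.0 to 187 CPM in mutants, and none was at 0 in all libraries. Nkg7 (1.83 ± 0.40, edgeR adjusted p = 0.0178) and Cd3e (1.87 ± 0.42, edgeR adjusted p = 0.0195) were called higher, and the other 8 were not called. All 10 log2 fold changes were positive, with a median of 1.45. DESeq2 called 5 of the 10 higher and none lower. Over all genes, edgeR called 4.36% higher, and DESeq2 called 20.7% in either direction. The Cd3e call was lost without control 2 (edgeR adjusted p = 0.0573) and the Nkg7 call without mutant 2 (0.0504). Stat4 did not follow the order of this sum among the mutants: mutant 4 had the lowest sum, 70.0 CPM, with 5.80 CPM of Stat4, and mutant 2 the highest, 187 CPM, with 2.07 CPM. In the controls, the highest sums, 71.7 and 68.9 CPM, were those of controls 1 and 2, which also had the most Stat4. The markers within the sum differed in order. In mutants 1 to 4, of the 2 called markers, Cd3e was at 8.13, 5.36, 9.41 and 7.92 CPM and Nkg7 at 47.3, 74.9, 57.8 and 23.2 CPM. The part of such cells in the Stat4 result was not tested. Stat4 lies on chromosome 1 (51987148 to 52107189, GRCm38, plus strand), and 26.7% of its exon bases belong also to Gm28177, an annotated gene on the same strand that was at most at 0.156 CPM; whether reads there were given to Stat4 depends on a counter setting not given in the sources used here.

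Socs1, which blocks the kinase activity of Janus kinases and is known for restraining interferon responses, was called higher. It was at 12.2, 16.4, 13.6 and 12.02 CPM in the controls and at 20.6, 28.0, 23.1 and 22.3 CPM in the mutants. All mutants lay above all controls. Mutants over controls, the log2 fold change was 0.79 ± 0.19 (95% interval 0.37 to 1.21), a level 1.73-fold higher, with an edgeR adjusted p of 0.0253. The call was lost in 5 of the 8 fits that left out a library (without control 1, 3 or 4 or mutant 2 or 3), with an edgeR adjusted p up to 0.077.

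Socs2, Socs6 and Cish did not pass the edgeR test, and DESeq2 called Socs2 higher (DESeq2 adjusted p = 0.0437). Socs2 was at 2.56, 3.28, 3.69 and 4.01 CPM in the controls and at 6.62, 6.80, 3.87 and 5.69 CPM in the mutants, where mutant 3 alone fell among the controls (log2 fold change 0.76 ± 0.31, edgeR adjusted p = 0.142). Socs6, which is known to act on receptor tyrosine kinases, was at 33.0, 43.3, 59.6 and 29.6 CPM in the controls and at 33.3, 21.2, 17.2 and 28.4 CPM in the mutants (-0.73 ± 0.28, edgeR adjusted p = 0.129). Cish was at 11.1, 15.2, 7.36 and 20.4 CPM in the controls and split the mutants into 32.1 and 32.1 CPM in mutants 1 and 2 and 14.2 and 10.4 CPM in mutants 3 and 4. Its log2 fold change was 0.72 ± 0.44, and the 95% interval of -0.27 to 1.71 covers both a fall and a rise (edgeR adjusted p = 0.324).

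**Figure D3:**
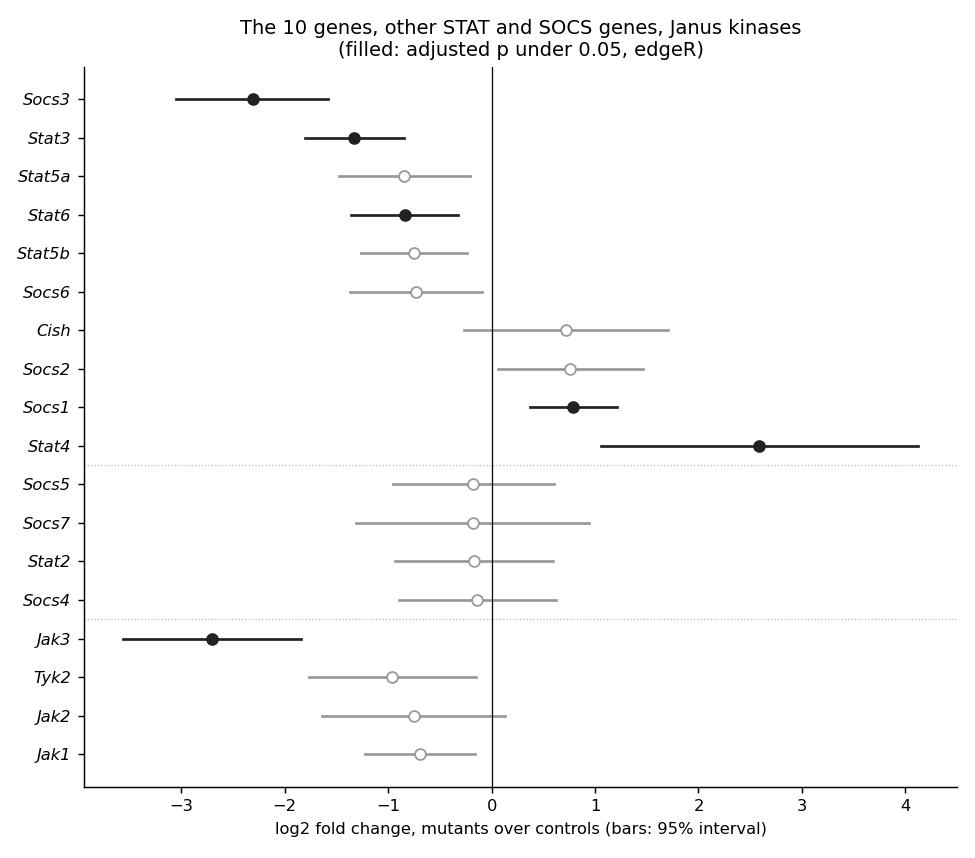
Log2 fold change of mutants over controls (x axis) with its 95% interval for the 10 genes, Stat2, Socs4, Socs5, Socs7 and the Janus kinases, separated by dotted lines. Filled points passed the test, namely Socs3, Stat3, Stat6, Socs1, Stat4 and Jak3.

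The windows at the RefSeq gene starts are shown for the 3 feedback inhibitors Socs3, Socs1 and Cish, since STATs are known to bind such starts and the test called Socs3 lower, Socs1 higher and Cish neither. Windows of 280 bases, 250 before and 30 after the start, came from RefSeq on GRCm38.p6 for 8 of the 10 genes; none was found for Socs2 and Socs6. Motifs were searched on both strands for the STAT consensus TTCNNNGAA, the wider form TTCNNNNGAA that Stat6 is known to bind, the SMAD palindrome GTCTAGAC and the CAGA box AGCCAGACA. Capitals mark a match, and each window is printed 5′ to 3′ along its gene, from chr11:117969337-117969616 (minus strand) for Socs3, chr16:10785507-10785786 (minus strand) for Socs1 and chr9:107296409-107296688 (plus strand) for Cish.
Socs3: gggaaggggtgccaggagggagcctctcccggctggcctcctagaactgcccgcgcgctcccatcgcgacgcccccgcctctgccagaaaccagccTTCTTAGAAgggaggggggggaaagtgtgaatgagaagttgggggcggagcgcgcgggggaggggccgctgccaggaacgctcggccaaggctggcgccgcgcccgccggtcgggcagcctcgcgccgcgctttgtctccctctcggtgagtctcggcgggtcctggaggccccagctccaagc
Socs1: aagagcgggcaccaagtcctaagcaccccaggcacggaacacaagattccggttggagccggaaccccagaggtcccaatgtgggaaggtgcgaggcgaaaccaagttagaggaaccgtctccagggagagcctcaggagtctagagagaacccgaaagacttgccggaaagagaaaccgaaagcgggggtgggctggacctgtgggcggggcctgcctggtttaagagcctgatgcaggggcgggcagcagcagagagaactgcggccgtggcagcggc
Cish: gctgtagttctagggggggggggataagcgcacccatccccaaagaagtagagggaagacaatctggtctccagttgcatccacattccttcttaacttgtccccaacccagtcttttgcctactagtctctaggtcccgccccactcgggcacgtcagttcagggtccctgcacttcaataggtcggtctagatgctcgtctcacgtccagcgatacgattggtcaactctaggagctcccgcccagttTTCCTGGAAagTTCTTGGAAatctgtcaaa

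With the start counted as position 0, the Socs3 window holds TTCTTAGAA from position -154 to -146. The Cish window holds TTCCTGGAA from position 0 to 8 and TTCTTGGAA from 11 to 19, and these do not overlap. The consensus reads the same on both strands, and it was absent from the windows of Socs1 and the other 5 genes. The STAT consensus was found in 7.83% of all 32851 windows of this length and at 2 or more places in 0.408%. The wider form, found in 6.50% of all windows, and both SMAD motifs, found in 0.192% and 0.359%, had no match in any of the 11 windows of the 8 genes. A match describes letters and no binding was measured, and Socs3 and Cish, which both hold the consensus, had log2 fold changes of opposite sign.

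The order of levels within the families was read per kilobase of exon, since longer genes give more reads. Socs3 led in both groups, at 525 ± 221 CPM per kilobase (SD, n = 4) in controls and 106 ± 25.5 in mutants, and Stat6 followed at 45.6 ± 12.5 and 25.4 ± 5.25. In controls Stat3 (18.0 ± 2.82) and Stat5b (9.72 ± 2.40) came next, each separate from its neighbours over the 4 mice, although Stat5b overlapped the gene below it when the longest transcript was the length. Socs1, Socs6, Stat5a, Stat2, Cish, Socs5, Socs7 and Socs4 then followed from 4.67 to 0.966 CPM per kilobase, where each overlapped the next, and Socs2 (0.355) and Stat4 (0.193) were lowest. In mutants Socs1 came next after Stat6, at 8.08 ± 1.08 CPM per kilobase, with a range that overlapped that of Stat3 at 7.17 ± 1.71, and from there to the lowest gene no neighbours were separate. With the longest transcript as the length, Stat3 stood above Socs1 in the mutants, and their ranges overlapped.

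The make-up of each family, as shares of its summed level per kilobase, also differed between the groups. Socs3 made up 95.8 to 98.2% of the summed SOCS and Cish level per kilobase in controls and 78.6 to 90.5% in mutants, and Socs1 made up 0.570 to 1.26% in controls and 5.26 to 10.04% in mutants. Because Socs3 dominates this sum, its fall raises the shares of the other genes without a rise in their levels. The share of Socs4, which was not called, went from 0.129 to 0.320% in controls to 0.442 to 1.04% in mutants. Stat3 made up 21.2 to 25.5% of the summed level of the 5 STAT genes above and Stat2 in controls and 13.9 to 18.7% in mutants. Stat6 made up 54.9 to 60.4% and 54.2 to 59.96%, the largest share of these 6 in all 8 mice. The summed STAT level was 61.3 to 101 CPM per kilobase in controls and 34.7 to 53.6 in mutants. Shares are descriptions and were not tested.

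**Figure D4:**
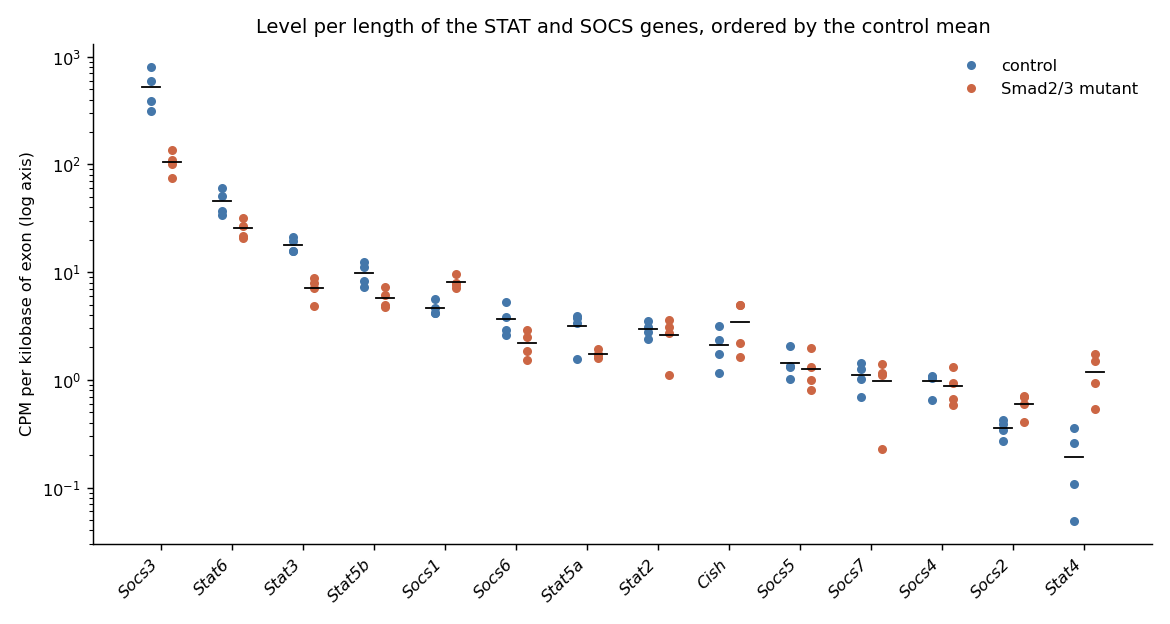
CPM per kilobase of exon (y axis, log scale) for 14 STAT and SOCS genes, ordered by the control mean, with a point per mouse in controls (blue) and mutants (orange) and black bars for group means. Socs3 lies above all others in both groups, and Stat4 has the lowest control mean.

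Further genes of both families were not called. Stat2, a factor of type I interferon signals, had a log2 fold change of -0.17 ± 0.34, and Socs4, Socs5 and Socs7 had values of -0.14 ± 0.34, -0.18 ± 0.34 and -0.18 ± 0.50. Of the 4 Janus kinases, Jak3, which works with the common gamma chain, was lower. It was at 54.9, 53.5, 60.8 and 35.4 CPM in the controls and at 12.5, 8.04, 3.26 and 7.70 CPM in the mutants, with no overlap. This was a log2 fold change of -2.70 ± 0.38, a level 6.49-fold lower (edgeR adjusted p = 0.0022), and the call held in all 8 fits that left out a library. Jak1 (-0.69 ± 0.23), Jak2 (-0.75 ± 0.39) and Tyk2 (-0.96 ± 0.36) were not called, with edgeR adjusted p of 0.0875, 0.243 and 0.114.

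Among other genes of the pathway, 95 of 111 listed genes passed the filter, and 14 were called higher, 12 lower and 69 not, with a median log2 fold change of 0.22. Of all genes tested, 4.36% were called higher and 7.97% lower, which is the background for the counts of this and the next lists. Of the 33 receptor genes tested, 7 were higher and 7 lower. Of 8 tested genes of the gp130 family, the receptors upstream of Stat3, 3 were called lower and none higher. Il6st, which encodes gp130 itself, was at 62.1, 83.2, 111 and 104 CPM in the controls and at 13.04, 18.4, 21.6 and 9.03 CPM in the mutants. It had no overlap and a log2 fold change of -2.54 ± 0.31 (edgeR adjusted p = 0.001). Csf3r, the receptor of granulocyte colony-stimulating factor, fell to a similar degree (-2.32 ± 0.19, edgeR adjusted p = 0.000141), and Il6ra, the specific chain of the interleukin 6 receptor, fell by 1.18 on the log2 scale (edgeR adjusted p = 0.00814). All 3 calls held in all 8 fits that left out a library.

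Receptors of the common gamma and beta chains divided, with 4 of 12 tested higher and 2 lower. Il7r (-3.12 ± 0.25, 6.22 to 10.6 CPM in mutants against 51.6 to 87.0) and Il21r (-2.41 ± 0.29, 19.4 to 44.2 against 149 to 251) were lower in all 8 fits that left out a library (edgeR adjusted p = 0.000114 and 0.000987). Il2rg, the common gamma chain, was higher (1.08 ± 0.28, edgeR adjusted p = 0.0357), as were the 2 chains of the granulocyte-macrophage colony-stimulating factor receptor, Csf2ra (1.09 ± 0.25, edgeR adjusted p = 0.0240) and Csf2rb (0.97 ± 0.24, edgeR adjusted p = 0.0280), and Crlf2 (0.92 ± 0.23, edgeR adjusted p = 0.0338). These 4 calls were less stable and held in 2, 4, 4 and 2 of the 8 fits, with edgeR adjusted p up to 0.0839, 0.0653, 0.0715 and 0.0972; all 4 were lost without control 1 and without mutant 3. Il2rg was also lost without control 3 or 4 or mutant 1 or 2, Csf2ra without control 3 or mutant 2, Csf2rb without control 2 or mutant 1, and Crlf2 without control 2, 3 or 4 or mutant 4. Il4ra, the receptor chain upstream of Stat6, was not called (0.04 ± 0.26, 95% interval -0.55 to 0.62).

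The 2 chains of the interleukin 10 receptor, another receptor upstream of Stat3, moved in opposite directions. Il10ra, the ligand-binding chain, was at 628, 675, 1031 and 541 CPM in the controls and at 310.5, 182, 319 and 201 CPM in the mutants (-1.50 ± 0.27, edgeR adjusted p = 0.00729). Il10rb, the shared chain, was at 89.0, 129, 148 and 123 CPM in the controls and at 246, 242, 352 and 296 CPM in the mutants (1.22 ± 0.20, edgeR adjusted p = 0.00461). Ifngr1 fell (-0.97 ± 0.22, edgeR adjusted p = 0.0207) and Ifnar2 rose (0.93 ± 0.17, edgeR adjusted p = 0.00766), and Ifnar1 was not called (0.82 ± 0.30, edgeR adjusted p = 0.108). The Ifngr1 call was lost without control 2, mutant 2 or mutant 4 (edgeR adjusted p up to 0.0636), and the other 3 calls held in all 8 fits. Epor, a single-chain receptor that acts through STAT5, was at 0 to 3.80 CPM in controls and 20.1 to 34.1 CPM in mutants (3.62 ± 0.92, edgeR adjusted p = 0.0349). Control 1 held no Epor count, and the call was kept only when that library was left out (edgeR adjusted p = 0.000662) and was lost without any other, with an edgeR adjusted p up to 0.0808.

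**Figure D5:**
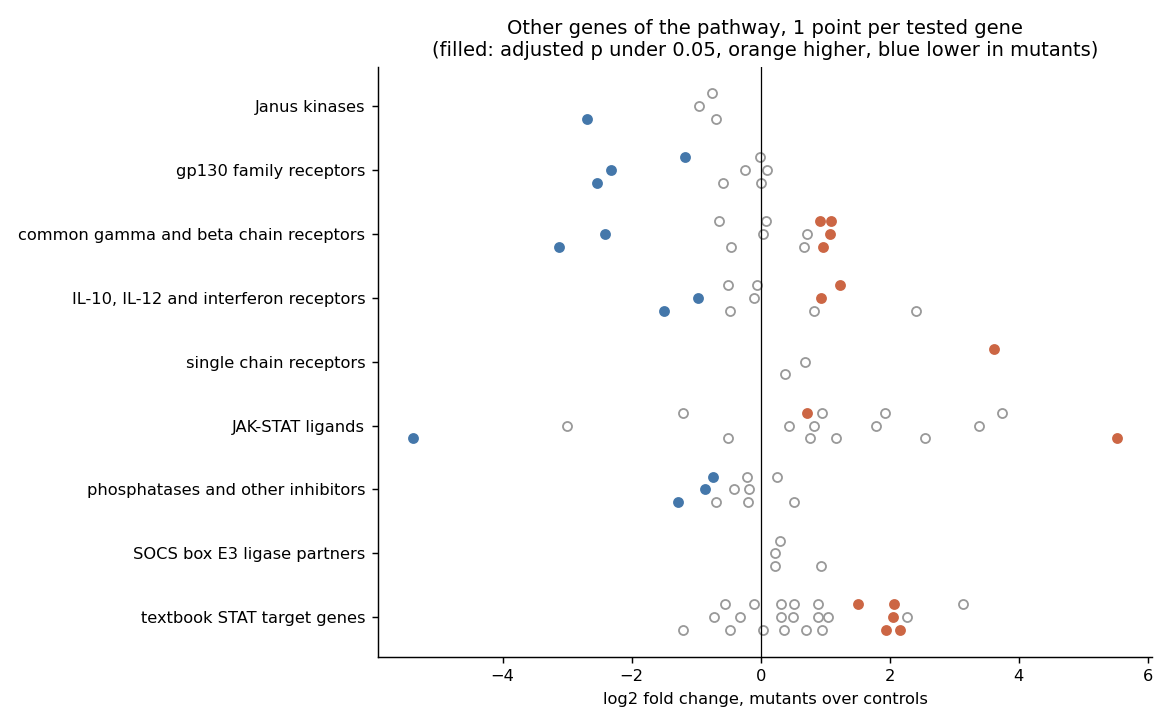
Log2 fold change of mutants over controls (x axis) for each tested gene of 9 lists of the pathway (y axis), with filled points for genes that passed the test, orange for higher and blue for lower in mutants. EdgeR calls among gp130 family receptors and inhibitors are all lower, those among target genes all higher, and those among the other receptors together go both ways.

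Of 16 ligand genes tested, 3 were called, against 12.3% of all genes. Clcf1, a ligand of the gp130 family, was at 17.4 to 35.9 CPM in controls and at most 1.13 CPM in mutants (-5.39 ± 0.64, edgeR adjusted p = 0.000904). Il23a, a subunit of interleukin 23, had 2 counts in all controls together and 117 in the mutants, a ratio of 55.9 with a 95% counting interval of 15.1 to 467 (edgeR adjusted p = 0.0147). Both calls held in all 8 fits that left out a library. Il15 rose by less (0.72 ± 0.19, edgeR adjusted p = 0.0360), and its call was kept only without mutant 1 (0.0497) and reached an edgeR adjusted p of 0.0863 in the other fits.

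Of 10 phosphatases and other inhibitors, 3 were lower and none higher, against 7.97% and 4.36% of all genes. These were Ptpn1, which removes phosphate from Janus kinases (-1.28 ± 0.18, edgeR adjusted p = 0.0024), Ptpn6, the phosphatase SHP-1 (-0.87 ± 0.18, edgeR adjusted p = 0.0140), and Pias3, a protein that binds STAT3 (-0.74 ± 0.19, edgeR adjusted p = 0.0388). The Pias3 call was kept only without mutant 1, with an edgeR adjusted p up to 0.101 in the other fits. Ptprc, which encodes CD45, one of the surface proteins used for the sort, was not called (0.25 ± 0.20, edgeR adjusted p = 0.440). The 4 partners with which SOCS proteins build a ubiquitin ligase, Elob, Eloc, Cul5 and Rnf7, were not called, at log2 fold changes of 0.93 ± 0.31, 0.22 ± 0.17, 0.22 ± 0.17 and 0.30 ± 0.22.

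Of 24 textbook STAT target genes tested, edgeR called 5 higher and none lower, and DESeq2 called 7 higher and 2 lower, against 12.3% and 20.7% of all genes called by each. Socs3, itself such a target, is not on this list. Pim1, a kinase gene induced by STAT3 and STAT5, was at 13.8, 12.3, 9.15 and 10.5 CPM in the controls and at 43.5, 36.9, 55.3 and 55.4 CPM in the mutants. Its log2 fold change was 2.07 ± 0.21 (edgeR adjusted p = 0.000398). Id2, a repressor of basic helix-loop-helix factors, was at 288 to 406 CPM in controls and 1116 to 2107 CPM in mutants (2.15 ± 0.24, edgeR adjusted p = 0.000639). Bcl3 (1.51 ± 0.29, edgeR adjusted p = 0.00933) and the interferon-induced chemokine Cxcl10 (1.94 ± 0.38, edgeR adjusted p = 0.0115) were higher too, and so was Ciita, the activator of MHC class II genes (2.05 ± 0.44, edgeR adjusted p = 0.0175). These 5 calls held in all 8 fits that left out a library.

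The genes whose pattern over the 8 libraries was most like that of each leading member were found among 10345 genes whose mean log2 CPM was 3 or more, by the root mean square distance of log2 CPM centred on each gene's mean. Nearest to Socs3 were Havcr2, Clip1 and Pros1, at distances of 0.26, 0.26 and 0.27. Nearest to Stat3 were Ptbp1, Ccdc88b and Mknk1, at 0.10, 0.11 and 0.11. Nearest to Socs1 were Ninj1, Arfgef2 and Tmed1, each at 0.16. Nearest to Stat4 were Il1b, Irf7 and Clec7a, at 0.44, 0.47 and 0.49, larger distances than those of the other 3. Genes as rare as Stat4 were not among those compared, so whether any of them follows it more closely was not tested.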

How the data were processed

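RNA of sorted brain microglia was read from 8 libraries, 4 per group, labelled by genotype in their titles. Per the Methods, the authors used Rsubread against mm10 and featureCounts to obtain counts per gene, and the deposited counts are raw; the submitters' notes also name DESeq2 1.28, and versions of the aligner and the strand setting are not given in the sources used here. The labels name Nextera XT single-end libraries and the Methods NEBNext Ultra II paired-end ones, both unstranded, and in the Methods the Smad2/3 data are given under a different deposit. A second deposited table holds the authors' own comparison (mean, fold change, standard error, statistic and p-values) and was not used.

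From the counts, edgeR 4.0.16 in R 4.3.3 compared mutants with controls (TMM, at least 10 counts in at least 4 libraries, glmQLFit and glmQLFTest, no block, Benjamini-Hochberg over 20153 genes), after a test on simulated data. Mice set the precision, with a biological coefficient of variation of 0.542; counting intervals cover counting error only, since reads carried no molecular identifiers. A count of 3 equals 0.0648 to 0.0839 CPM. No source says whether the samples were prepared on different days. Over 111 pathway genes, libraries of a group differed by far more than sampling noise, with a chi-square of 107 to 276 per gene between them. Of 55573 gene identifiers, 55480 matched GENCODE M21, which gave symbols, positions and exon lengths. Tables were made in Python 3.11.15 with pandas 2.3.3, numpy 2.4.6 and, for intervals, scipy 1.17.1, and plots with matplotlib 3.10.9.

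The 10 genes, the gene lists and the rule for named genes were chosen with earlier results of these data known. Named were the 10 genes, further STAT, SOCS and Janus kinase genes, SOCS box partners, Smad2, Smad3, Xist and Ddx3y. In each other pathway list and in the immediate early and the T and NK lists, up to 4 calls of lowest adjusted p per direction were named. The STAT targets were an exception, with all 5 calls named. Il10 was named only for its call with the replicate block. Calls in the other marker lists and the other sex-linked genes were not named. Il6st, Il6ra, Il4ra, Il10ra, Il2rg, Csf2rb, Ifngr1, Ifnar1, Ptpn6, Ptprc, Fos, Jun, Egr1 and Dusp1 were named whatever their call. The 3 nearest patterns were named for the 2 members of lowest adjusted p in each direction. Alternatives were DESeq2 1.42.0, RLE size factors, library totals, no filter, the replicate block, a filter of 10 counts in every library, each library left out in turn with the genes tested on all 8, and the longest transcript as gene length. Leaving out control 1 and mutant 1 together was chosen after seeing the data. A listed gene is not reported here.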

Additional observations from a re-analysis of the deposited data

Results flagged for a closer look

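Among 38 groups of 4 libraries (the 10 genes, further STAT and SOCS genes and the Janus kinases in each group), a single value stood apart from the rest of its group by Dixon's test at the 95% level. Socs4 was at 4.50 CPM in control 1 and at 7.23 to 7.55 CPM in the other 3 controls, a gap of 0.897 of the range, above the critical value for 4 samples. Chance alone gives about 1 such value in 20 groups. Socs4 was not called with all 8 libraries.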

How the results depend on the processing

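No fold change of the 10 genes changed sign under any alternative. Of 149 recomputed member values, 117 kept their side of the threshold, 23 lost a call and 9 gained it; Stat3 and Socs3 were called in every setting. With at least 10 counts required in all 8 libraries, Stat4 was not tested. The number of the 10 genes called was 5, and it was 8 by DESeq2, 2 with no filter on low counts (Stat3 and Socs3), 3 with the replicate block, and 2 to 5 with each library left out (2 without control 3 or mutant 3, 3 without mutant 2 or mutant 4). Over all genes, 2485 were called, and 4751 by DESeq2 (2089 higher, 2662 lower), and 1567 to 2499 with each library left out, with 1572 without control 2 and 1567 without control 3. The other pathway genes called numbered 26, and 20 to 25 with each library left out. Scaling by library totals alone moved the median log2 fold change of all genes from 0.011 to 0.13. The replicate numbers were checked as a pairing, and same-numbered deviations correlated at 0.166, 0.0183, 0.144 and 0.114. Controls 1, 3 and 4 and the mutants of the same numbers correlated best with each other, and control 2 and mutant 2 did not. Whether the numbers pair mice was not settled by this, and the main test used no block. With the replicate block Stat4 and Stat6 were no longer called (edgeR adjusted p = 0.0973 and 0.0622). Il2rg, Epor, Il15, Pias3, Ciita and Cd3e lost their calls too (edgeR adjusted p = 0.0660, 0.0687, 0.0570, 0.0738, 0.0656 and 0.0507). Among the genes that gained a call were Jak1, Ifnar1 and Jun (edgeR adjusted p = 0.0347, 0.0345 and 0.0388). The ligand gene Il10, not called by the main test (edgeR adjusted p = 0.0557), gained one too (edgeR adjusted p = 0.0462). With the longest transcript as length, 8 of 20 levels per kilobase (those of Stat3, Stat5a, Socs2 and Socs6) moved by more than 1 SD. The cause of these differences was not tested. Stat4, at 7 to 53 counts per control library, is the gene for which depth limits the value most.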
